A study of Mus musculus with 22 samples.

Results

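The enzymes and receptors that make, break down and sense sphingosine 1-phosphate were followed in tissues of mice mutant in Sgms1. The group holds 9 genes, and every array probe with 1 of these gene symbols in the platform annotation was taken, which gave 17 probes of the 25697 on the array and 9 of its 16593 gene symbols. Total RNA was measured on 22 single-colour bead arrays, on which the brightness of a probe reports the amount of its transcript. Testes were taken at 27 weeks of age from 4 wild-type mice and 4 mice mutant in Sgms1. Brain and muscle were taken at 17 weeks of age from 3 wild-type mice and 4 mutants. All mice were of strain C57BL/6J, and the series speaks of male mice. Each of these 7 younger mice gave both a brain and a muscle library, and 15 mice were used in all. The sources used here do not describe the Sgms1 allele. Each library was whole tissue, so fewer cells of a type and less RNA per cell cannot be told apart in any value below.

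Sgms1 encodes sphingomyelin synthase 1, a Golgi enzyme that consumes ceramide to make sphingomyelin. Ceramide that is not used in this way can be cut by ceramidases to sphingosine, which sphingosine kinases turn into sphingosine 1-phosphate. That lipid is either returned to sphingosine by phosphatases, destroyed for good by a lyase, or released to act on a family of G protein-coupled receptors on blood vessel, immune and nerve cells. Among the genes measured, Asah1 encodes the acid ceramidase of lysosomes and Acer3 an alkaline ceramidase of the endoplasmic reticulum and Golgi. Sphk1 and Sphk2 encode the sphingosine kinases, Sgpp1 a phosphatase and Sgpl1 the lyase, and S1pr1, S1pr2 and S1pr3 encode receptors.

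Enzyme genes were detected on more arrays than receptor genes. A probe counts as detected on an array when its deposited detection p, the chance that a negative control probe is as bright, is below 0.05. Asah1, Acer3, Sphk2 and Sgpp1 each had a probe detected on all 22 arrays. These genes encode an acid and an alkaline ceramidase, a kinase and a phosphatase. The lyase gene Sgpl1 had a probe detected on 21 arrays, in all 8 testis, all 7 brain and 6 of 7 muscle libraries. Sphk1 had a probe, ILMN_1232884, that was detected on 8 of 8 testis and 7 of 7 brain arrays and on 0 of 7 muscle arrays.

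Among the receptors, the only S1pr1 probe was detected on 0 of 22 arrays. S1pr1 is the receptor best known from endothelial cells, and markers of that cell type were present in brain and muscle. Of 8 endothelial markers on the array, 7 were detected on every brain array and 7 on every muscle array. In testis 1 was detected on every array and 7 on at least 1 array. Their summed signal was 67.7 to 88.2 in testis, 979 to 1100 in brain and 1130 to 1480 in muscle. Each tissue was normalized alone for these sums, so their sizes cannot be compared between tissues. The 2 S1pr3 probes were detected on 2 and on 1 of the 22 arrays, in 1 testis and 2 muscle libraries. S1pr2 was detected on 1 of 8 testis, 5 of 7 brain and 5 of 7 muscle arrays. Raw intensities of the S1pr1 probe lay between 85.4 and 129, where the median over all probes of an array ran from 93.65 to 142.9. A probe that is not well above background gives only a bound on its transcript, so absence of S1pr1 and S1pr3 transcripts was not shown.

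**Figure D1:**
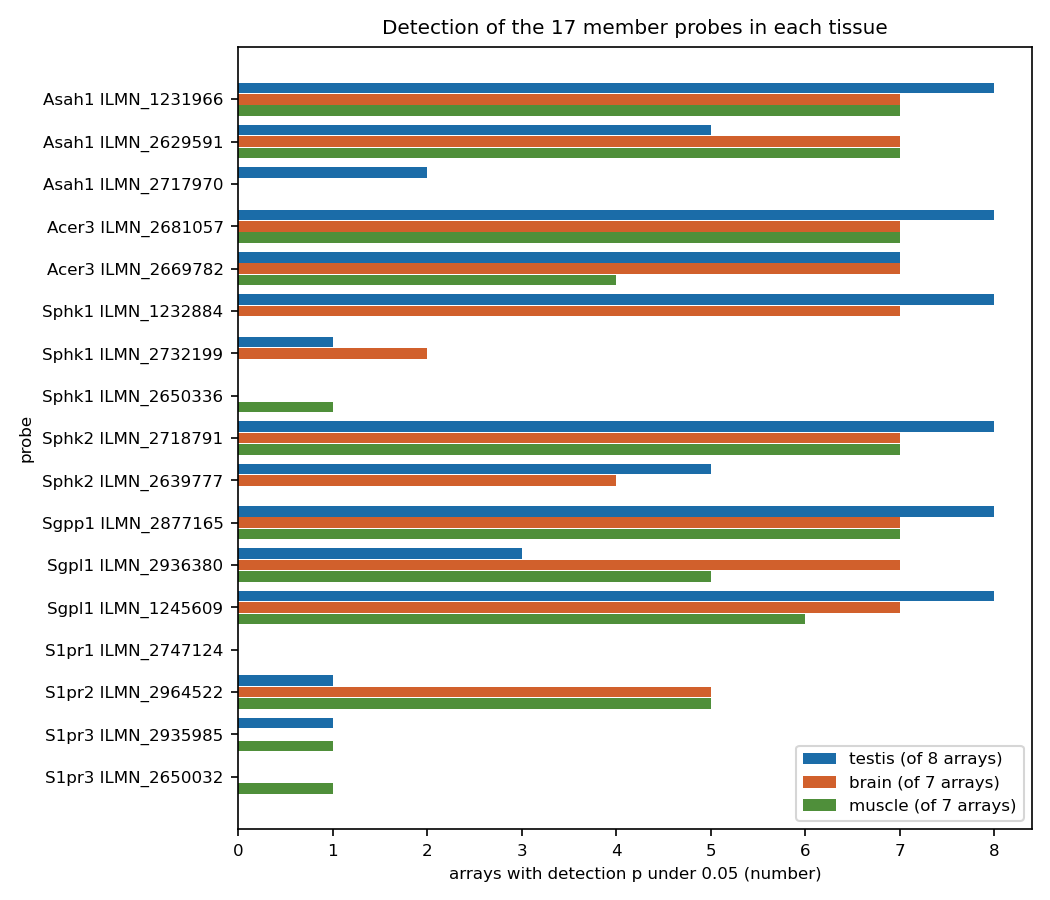
Number of arrays on which each of the 17 probes was detected (horizontal axis), by tissue, out of 8 testis, 7 brain and 7 muscle arrays. Probes of Asah1, Acer3, Sphk2 and Sgpp1 fill all arrays, Sphk1 has no bar for muscle on its probe ILMN_1232884, and S1pr1 has no bar at all.

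Probes of the same gene followed each other to different degrees. Acer3 and Sphk2 each had 2 probes that were tested, whose levels over the 22 arrays correlated at Pearson's r = 0.599 and r = 0.757. The 2 Asah1 probes correlated at 0.436, and the 2 Sgpl1 probes at 0.0403. For Sphk1 the probe ILMN_1232884 and the second probe, ILMN_2732199, which was designed on another transcript record and was detected on 3 arrays, had r = -0.36. These values describe 22 arrays that share tissues and mice. Another Asah1 probe, ILMN_2717970, was detected on 2 arrays and another Sphk1 probe, ILMN_2650336, on 1. Both were left out of the tests, since a probe had to be detected on at least 3 arrays of a tissue to be tested there. That rule kept 10 member probes of 6 genes in testis, 11 of 7 genes in brain and 9 of 6 genes in muscle.

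The levels below are log2 intensities after background correction and quantile normalization, on a scale whose floor is at 4. The median raw intensity per array, which includes background, was 93.65 to 106.8 in testis, 112.2 to 142.9 in brain and 132.6 to 142.8 in muscle. The share of probes detected per array was 41.09% to 47.12% in testis, 57.11% to 59.54% in brain and 41.45% to 44.62% in muscle. Several libraries stood apart. The summed signal of 5 epididymal markers was 140 in testis wild type 4 and 7720 to 10600 in the other 7 testis libraries. The summed signal of 3 pituitary markers was 29200 in brain wild type 2 and 6930 in brain wild type 3 against 24.3 to 64 in the other 5 brain libraries. Ucp1, which marks brown fat, was detected in muscle wild types 1 and 3 alone, at log2 levels of 7.27 and 7.72. The sum over the 4 brown fat markers was 7090 to 8190 in wild type and 7280 to 8090 in mutants. Cox8b made up most of that sum, at a mean log2 level of 12.87 in muscle against 4.43 to 6.29 for the other markers. The sum could therefore show little about muscle wild types 1 and 3. The summed signal of 5 slow fibre markers was 5310 and 5950 in muscle mutants 1 and 2 and 230 to 1110 in the other 5 muscle libraries. Over the 6 white fat markers on the array, the summed signal in muscle was 1810 to 3980 in wild type and 369 to 1110 in mutants.

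The mutated gene was measured by 1 probe, detected on all 22 arrays. Its log2 level differed between mutants and wild type by -0.62 in testis (limma adjusted p = 0.834), -0.78 in brain (limma adjusted p = 1) and -0.70 in muscle (limma adjusted p = 0.0871). In brain, the library labelled wild type 3 stood at 6.64, near 3 of the mutants at 6.31 to 6.59, and the library labelled mutant 2 stood at 8.14, near the other wild types at 8.07 and 8.33. The muscle libraries of the same mice, at 8.12 and 7.50, fell on the side of their labels. Brain results are therefore given with and without these 2 libraries.

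The first question was whether expression of the pathway that receives unused ceramide differed between mutants and wild type. No member probe passed a 5% false discovery rate (limma, Benjamini-Hochberg over all probes tested in the tissue). The counts were 0 of 10 probes in testis, 0 of 11 in brain and 0 of 9 in muscle, where 0%, 0% and 0.105% of all probes tested passed. At an unadjusted p below 0.05 the members counted 1 in testis, 0 in brain and 1 in muscle, and the shares over all probes were 5.53%, 3.85% and 9.18%. In testis 0 and in brain 0 of the member probes had genotype groups that did not overlap, and in muscle 1 had. Over all probes tested, the mutants lay wholly above the wild types for 1.7% in testis, 2.25% in brain and 4.4% in muscle, and wholly below them for 1.72%, 2.19% and 4.48%, which makes 3.42%, 4.44% and 8.88% in either direction. The median difference of the members was 0.05 in testis, -0.03 in brain and -0.07 in muscle, beside 0.018, 0.0023 and 0.01 over all probes. The 95% confidence intervals of the member probes reached at most 1.73-fold in testis, 1.45-fold in brain and 1.62-fold in muscle, so differences up to these sizes were within the error of the data.

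**Figure D2:**
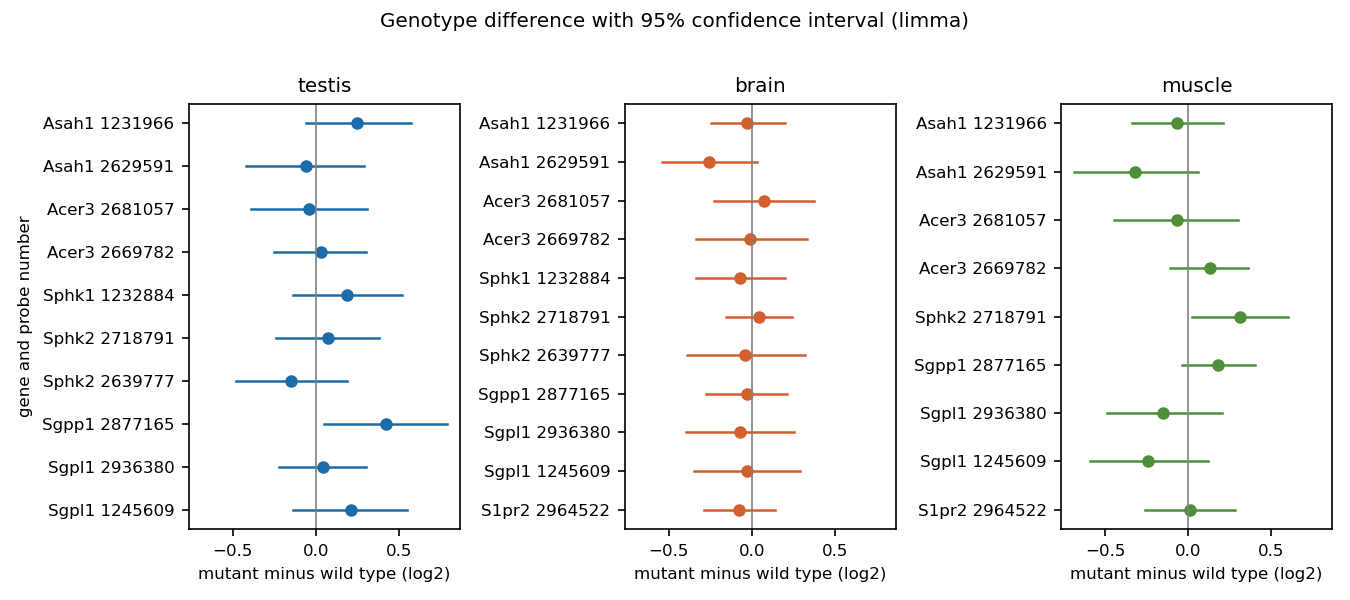
Difference in log2 intensity between mutant and wild type for each tested member probe (points) with its 95% confidence interval from limma (lines), by tissue. The interval spans 0 for all probes except Sgpp1 in testis, centred at 0.42, and Sphk2 ILMN_2718791 in muscle, centred at 0.31, neither of which passed the adjusted test.

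Among the ceramidases, the Asah1 probe ILMN_1231966 read 8.08, 7.77, 8.12 and 7.69 in the wild-type testes and 7.96, 8.34, 8.07 and 8.30 in the mutant testes. The ranges overlapped, and the difference was 0.25 (SE 0.14, limma adjusted p = 0.834). In brain the same probe read 10.88, 10.61 and 10.78 in wild type and 10.74, 10.65, 10.74 and 10.79 in mutants. All 4 mutants thus lay inside the wild-type range, with a difference of -0.03 (95% interval -0.25 to 0.20). In muscle it read 8.99, 9.20 and 9.25 in wild type and 9.15, 9.19, 9.14 and 8.83 in mutants, a difference of -0.07 (95% interval -0.34 to 0.21). The mutant values overlapped those of wild type there too, with mutant 4 alone below them.

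The other Asah1 probe, ILMN_2629591, had lower means in mutants of each tissue, without passing the test in any. In brain it read 7.10, 6.94 and 6.62 in wild type and 6.65, 6.53, 6.79 and 6.56 in mutants (difference -0.26, 95% interval -0.54 to 0.03, limma adjusted p = 1). Without the 2 brain libraries whose Sgms1 level went against the label, this difference was -0.36, and without wild type 1 alone it was -0.15. In muscle it read 5.49, 6.10 and 5.75 in wild type and 5.72, 5.51, 5.46 and 5.14 in mutants (difference -0.32, 95% interval -0.69 to 0.06, limma adjusted p = 0.638). Without wild type 2 the muscle difference was -0.16, without mutant 4 it was -0.21, and without wild types 1 and 3 it was -0.64. The genotypes overlapped in both tissues, and the probe ILMN_1231966 of the same gene showed smaller differences. In testis the difference of ILMN_2629591 was -0.06.

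Acer3 levels were close between the genotypes. Its probe ILMN_2681057 read 7.14, 6.57, 7.23 and 7.22 in wild-type testis and 7.17, 6.86, 6.97 and 6.99 in mutant testis (difference -0.04, 95% interval -0.39 to 0.31). In brain the values were 7.87, 7.38 and 7.76 in wild type and 7.58, 7.64, 7.84 and 7.90 in mutants (difference 0.07, 95% interval -0.23 to 0.37). The mutant values overlapped those of wild type in both tissues. In muscle, wild types read 5.54, 5.61 and 5.63, and mutants read 5.72, 5.29, 5.18 and 5.89. The mutants there spread on both sides of the wild types, with SDs of 0.34 and 0.05. The other Acer3 probe, ILMN_2669782, differed by 0.03 in testis, -0.01 in brain and 0.13 in muscle.

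Of the kinases, Sphk1 on ILMN_1232884 read 5.79, 5.64, 5.83 and 5.19 in wild-type testis and 5.93, 5.77, 5.84 and 5.66 in mutant testis (difference 0.19, limma adjusted p = 0.868). The wild-type library at 5.19 was wild type 4, and without it the difference was 0.05. In brain Sphk1 read 7.40, 7.59 and 7.41 in wild type and 7.56, 7.49, 7.42 and 7.13 in mutants (difference -0.07, 95% interval -0.34 to 0.20). The groups overlapped in both tissues.

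Sphk2, the kinase best known from the nucleus and mitochondria, varied little between the brain libraries. On ILMN_2718791 the brain values were 8.87, 8.78 and 8.82 in wild type and 8.87, 8.86, 8.89 and 8.85 in mutants (difference 0.04, 95% interval -0.16 to 0.24). In testis they were 7.62, 7.40, 7.95 and 7.88 in wild type and 7.87, 7.73, 7.85 and 7.67 in mutants (difference 0.07). All mutants lay within the wild-type range in testis. In muscle the wild types read 6.94, 7.02 and 7.42 and the mutants 7.50, 7.40, 7.52 and 7.34. Wild type 3 overlapped the mutants, and the difference of 0.31 (SE 0.13, 95% interval 0.02 to 0.60) did not pass adjustment (limma adjusted p = 0.51, exact permutation p = 0.0857). Muscle wild types 1 and 3 were the libraries with Ucp1 signal; without them the difference was 0.42, with a single wild-type library left. The second Sphk2 probe, ILMN_2639777, differed by -0.15 in testis and -0.04 in brain.

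Sgpp1, the phosphatase that returns sphingosine 1-phosphate to sphingosine, had the largest difference among the member probes of testis. Its probe read 7.71, 7.30, 7.67 and 7.03 in wild type and 8.09, 7.90, 7.76 and 7.64 in mutants. Mutant 4 fell below wild types 1 and 3, so the groups overlapped. The difference was 0.42 (SE 0.17, 95% interval 0.05 to 0.79), or 1.34-fold, and did not pass adjustment (limma adjusted p = 0.834, exact permutation p = 0.0857, where 0.0286 is the smallest that 4 against 4 allows). The lowest of the 8 libraries was wild type 4, the library nearly free of epididymal signal, and without it the difference was 0.29. The same library was also lowest for Sphk1 and for Asah1 ILMN_1231966, whose difference without it was 0.18. It was lowest for Sgpl1 ILMN_1245609 too, below the 4.75 to 5.31 of the others, and that difference of 0.21 became 0.09 without it. Other cell type signals also moved. The sum over 5 Sertoli cell markers was 3090 to 4140 in wild type, lowest in wild type 4, and 3750 to 5130 in mutants, lowest in mutant 4. The sum over 5 germ cell markers was 6550 to 11200 in wild type and 5590 to 7130 in mutants. The part of epididymal, Sertoli and germ cell RNA in these differences was not tested.

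**Figure D3:**
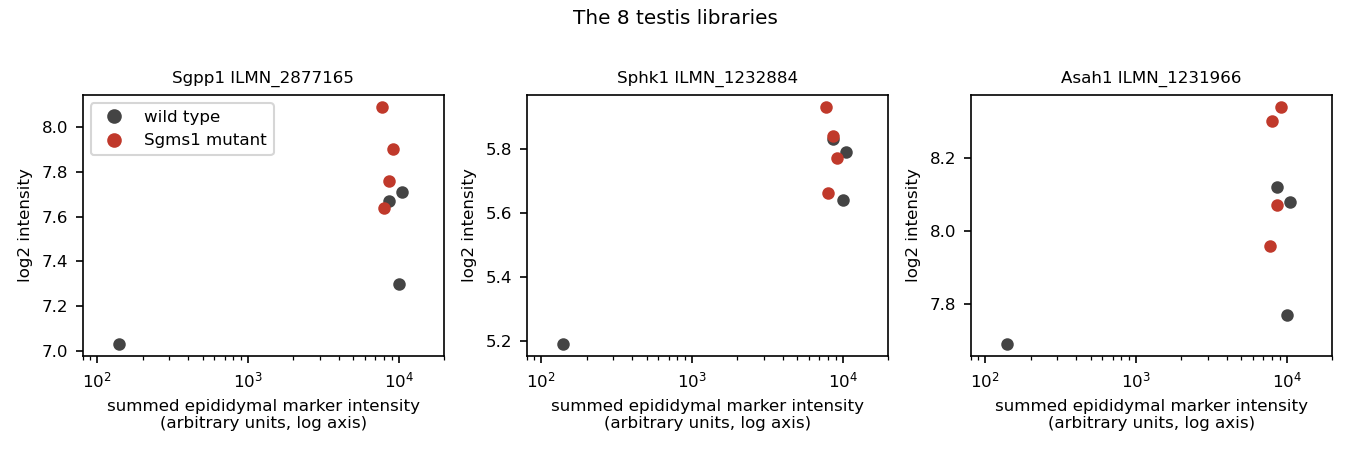
Log2 intensity of Sgpp1, Sphk1 and Asah1 (vertical axes) against the summed intensity of 5 epididymal markers (horizontal axes, log scale, arbitrary units) in the 8 testis libraries; each point is a mouse, coloured by genotype. Wild type 4, at a marker sum of 140, is the lowest point in each panel, and the other 7 libraries lie between 7720 and 10600.

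In muscle, Sgpp1 read 8.31, 8.22 and 8.17 in wild type and 8.33, 8.38, 8.50 and 8.44 in mutants. Every mutant was above every wild type, which held for 1 of the 9 member probes tested in muscle and for 4.4% of all probes tested there. The difference of 0.18 (95% interval -0.04 to 0.40) did not pass (limma adjusted p = 0.654, exact permutation p = 0.0571). White fat markers were lower in the same mutants and slow fibre markers higher in 2 of them, as given above, and their part in the difference was not tested. In brain the Sgpp1 values were 9.24, 9.12 and 9.34 in wild type and 9.19, 9.10, 9.12 and 9.39 in mutants, which overlapped (difference -0.03, 95% interval -0.28 to 0.21).

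The lyase gene Sgpl1 differed by 0.04 and 0.21 in testis, -0.07 and -0.03 in brain and -0.15 and -0.24 in muscle on its 2 probes. On ILMN_1245609 the brain values were 6.23, 6.65 and 6.50 in wild type and 6.36, 6.37, 6.23 and 6.77 in mutants. The mutants covered the wild-type range. In muscle the wild types read 4.68, 4.86 and 5.42 and the mutants 4.78, 4.76, 4.77 and 4.69. Wild type 3 was the high library there, and without it the difference was -0.02. The receptor gene S1pr2 read 4.79, 4.74 and 4.74 in wild-type brain and 4.77, 4.77, 4.63 and 4.56 in mutant brain. In muscle the difference was 0.01, between means of 4.68 in both genotypes. All of these S1pr2 values lay close to the floor of the scale.

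**Figure D4:**
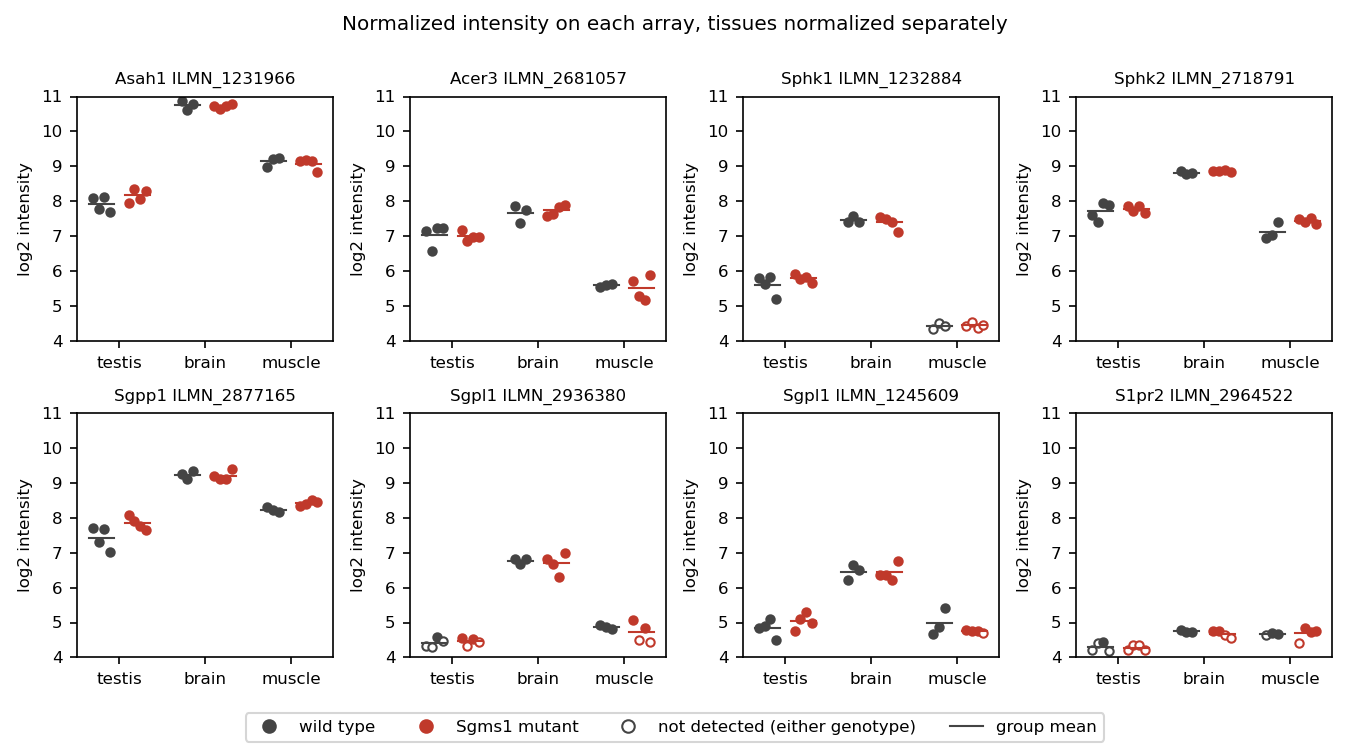
Log2 intensity (vertical axis) of 8 member probes on each array, by tissue and genotype; filled points were detected, open points were not, and lines are group means. Tissues were normalized separately, so genotypes can be compared within a tissue but heights cannot be compared between tissues.

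Leaving out the brain libraries labelled wild type 3 and mutant 2 brought no member probe past the threshold. The 11 differences then ran from -0.36 to 0.15, and the lowest limma adjusted p was 0.824. Sgms1 itself differed by -1.71 in that fit. The 2 libraries were left out because of their Sgms1 level, so this value is no test of Sgms1.

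It was next asked whether the genotype difference of a member depended on the tissue. The difference between genotype effects was tested for 12 member probes in each of 3 pairs of tissues. In the comparison of brain with muscle 0 of 12 passed (limma, lowest adjusted p = 0.867), where 0.011% of all probes did. In that of testis with brain 0 of 12 passed (lowest adjusted p = 0.935), beside 0% of all probes. For testis against muscle 0 of 12 passed (lowest adjusted p = 0.49), beside 0.303% of all probes. At an unadjusted p below 0.05 the counts were 0, 1 and 1 of 12, beside 6.64%, 4.93% and 9.82% of all probes. The probe in testis against brain was that of Sgpp1, whose effect was 0.45 (SE 0.19) higher in testis than in brain.

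Many member probes differed between tissues. For this comparison all 22 arrays were normalized together, and the brain and muscle arrays were compared within each mouse. In each of the 3 pairs of tissues 9 of 12 member probes passed (limma, 6 higher and 3 lower each), in a setting where most probes on the array differ. Of all probes tested, 73.7% passed between brain and muscle, 79.8% between testis and brain and 73.7% between testis and muscle, so the counts of the members are near the background. By direction, 35.1% of all probes were higher in brain than in muscle and 38.6% lower, 35.1% higher in testis than in brain and 44.7% lower, and 33% higher in testis than in muscle and 40.7% lower. Testis came from other and older mice, and tissue, age and mouse cannot be told apart there. Scaling matters for these comparisons, because the median difference of all probes between testis and brain was -0.11 after quantile normalization and -0.56 when arrays were only scaled to a common median. Directions are stated below for member probes that kept them under quantile normalization, median scaling, no background correction and the authors' processed values.

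Sphk1 was lower in muscle than in both other tissues on its probe ILMN_1232884. The lowest, median and highest log2 levels were 6.21, 6.48 and 6.64 in brain, 6.18, 6.95 and 7.13 in testis and 4.29, 4.40 and 4.63 in muscle. Muscle did not overlap with either tissue. Since the probe was detected on no muscle array, its fold is a bound, computed against the dimmest detected signal of each muscle array. It was at least 2.86-fold higher in brain (limma adjusted p = 3.05e-09) and at least 3.68-fold higher in testis (limma adjusted p = 3.62e-15) than in muscle. Over the 4 processings these bounds ran from 1.41 to 4.82 for brain and from 1.59 to 3.68 for testis. The second Sphk1 probe, ILMN_2732199, was detected on 2 brain arrays, 1 testis array and 0 muscle arrays. It did not show this order, at -0.18 for brain minus muscle (limma adjusted p = 0.0914) and -0.13 for testis minus muscle (limma adjusted p = 0.284). Sphk2, the other kinase, was detected on every muscle array, at 7.42, 7.82 and 7.93 as lowest, median and highest level. Its testis levels were 8.61, 8.98 and 9.14, all above those of muscle (difference 1.22, SE 0.08, limma adjusted p = 7.47e-12, and 0.59 with median scaling). Brain, at 7.85 to 7.97, overlapped with muscle and was higher by 0.20 (SE 0.07, limma adjusted p = 0.0275). Over the alternatives this difference ran from 0.13 to 1.09, with limma adjusted p up to 0.0681.

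The ceramidase probes varied in their order over tissues. Asah1 on ILMN_1231966 had its highest levels in brain, at 9.78, 9.92 and 10.07, against 9.13, 9.42 and 9.50 in muscle and 8.88, 9.27 and 9.52 in testis. Brain overlapped with neither tissue, and its level was 1.46-fold that of muscle (difference 0.54, SE 0.08, limma adjusted p = 0.000181) and 1.61-fold that of testis (limma adjusted p = 2.19e-07). Muscle and testis overlapped, and their difference of -0.15 did not pass (limma adjusted p = 0.132). The other Asah1 probe, ILMN_2629591, gave another order. It was lower in brain, at 5.68, 5.78 and 6.19, than in muscle, at 5.67, 6.07 and 6.64 (difference -0.28, limma adjusted p = 0.0344), and this turned to 0.67 with median scaling. Without the 2 brain libraries whose Sgms1 level went against the label it was -0.21 and did not pass (limma adjusted p = 0.20). Its testis levels were 4.59, 5.11 and 5.94, with detection on 5 of 8 arrays, and lay below muscle by 1.01 on the log2 scale (testis minus muscle -1.01, limma adjusted p = 1.53e-05). The 2 Asah1 probes thus disagreed on brain against muscle after quantile normalization, whereas with median scaling both were higher in brain, by 1.16 and 0.67. No direction of brain against muscle is given for ILMN_2629591. Acer3 on ILMN_2681057 had its lowest levels in muscle, at 5.72, 6.17 and 6.44. They were 6.44, 6.81 and 6.95 in brain and 7.79, 8.28 and 8.43 in testis. Testis exceeded muscle by 2.12 (SE 0.12, limma adjusted p = 2.17e-13), or 4.34-fold, and brain exceeded muscle by 0.64 (SE 0.11, limma adjusted p = 0.000397), or 1.56-fold. The other Acer3 probe, ILMN_2669782, showed less. Brain and muscle did not differ beyond their spread on it (difference 0.03, limma adjusted p = 0.804), and testis exceeded muscle by 0.33 (limma adjusted p = 0.0163), with detection on 4 of 7 muscle arrays.

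The lyase and the phosphatase did not share an order. Sgpl1 on ILMN_2936380 was higher in brain, at 5.50, 5.93 and 6.08, than in muscle, at 4.44, 5.29 and 5.60, or testis, at 4.42, 4.82 and 5.10. Brain exceeded muscle by 0.73 (SE 0.16, limma adjusted p = 0.0026), with overlap of the ranges, and the fitted difference of testis minus brain was -1.09 (limma adjusted p = 1.53e-06), without overlap. In testis this probe was detected on 3 of 8 arrays, and its mean of 4.78 lay below the dimmest detected signals there, 4.79 to 5.12, so the size of that difference is not exact. On the other Sgpl1 probe brain exceeded muscle by 0.36 (limma adjusted p = 0.0172), but brain and testis did not differ beyond their spread (difference 0.12, SE 0.16). Over the alternatives its brain minus muscle difference ran from 0.10 to 1.09, with limma adjusted p up to 0.325. Sgpp1 levels lay between 8.18 and 9.29 in all 3 tissues. Its order depended on the scaling: testis minus brain was 0.53 after quantile normalization and -0.98 after median scaling, and brain minus muscle was -0.37 and 0.42. S1pr2 read 4.37, 5.01 and 5.26 in muscle and 4.44, 4.53 and 4.56 in brain. The dimmest detected signals were 4.91 to 5.09 on muscle arrays and 4.45 to 4.49 on brain arrays. S1pr2 thus lay at the detection limit of each tissue, and no direction is given for it although the fit passed (difference -0.44 for brain minus muscle, limma adjusted p = 0.00449).

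Testis against brain had a settled direction for few members. Acer3 ILMN_2681057 differed by 1.48 (testis minus brain) after quantile normalization and by -0.08 after median scaling. Relative to the median of all probes under the same processing these became 1.59 and 0.48. For Sphk2 ILMN_2718791 the differences were 1.02 and -0.50, and relative to that median 1.13 and 0.06. For Sphk1 ILMN_1232884 they were 0.36 and -1.11, and relative to that median 0.47 and -0.55. The order of testis and brain was therefore left unstated for these probes and for Sgpp1. The second Sphk2 probe, ILMN_2639777, read higher in testis in each of the 4 processings (difference 0.45, limma adjusted p = 0.00889). Detection was on 5 of 8 testis and 4 of 7 brain arrays. Its means were 4.97 in testis and 4.51 in brain. The dimmest detected signals were 4.79 to 5.12 on testis arrays and 4.45 to 4.49 on brain arrays. This probe thus lay near the detection limit of each tissue, and no direction is given for it. By contrast, Asah1 on both probes and Sgpl1 ILMN_2936380 were lower in testis than in brain in each of the 4 processings.

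**Figure D5:**
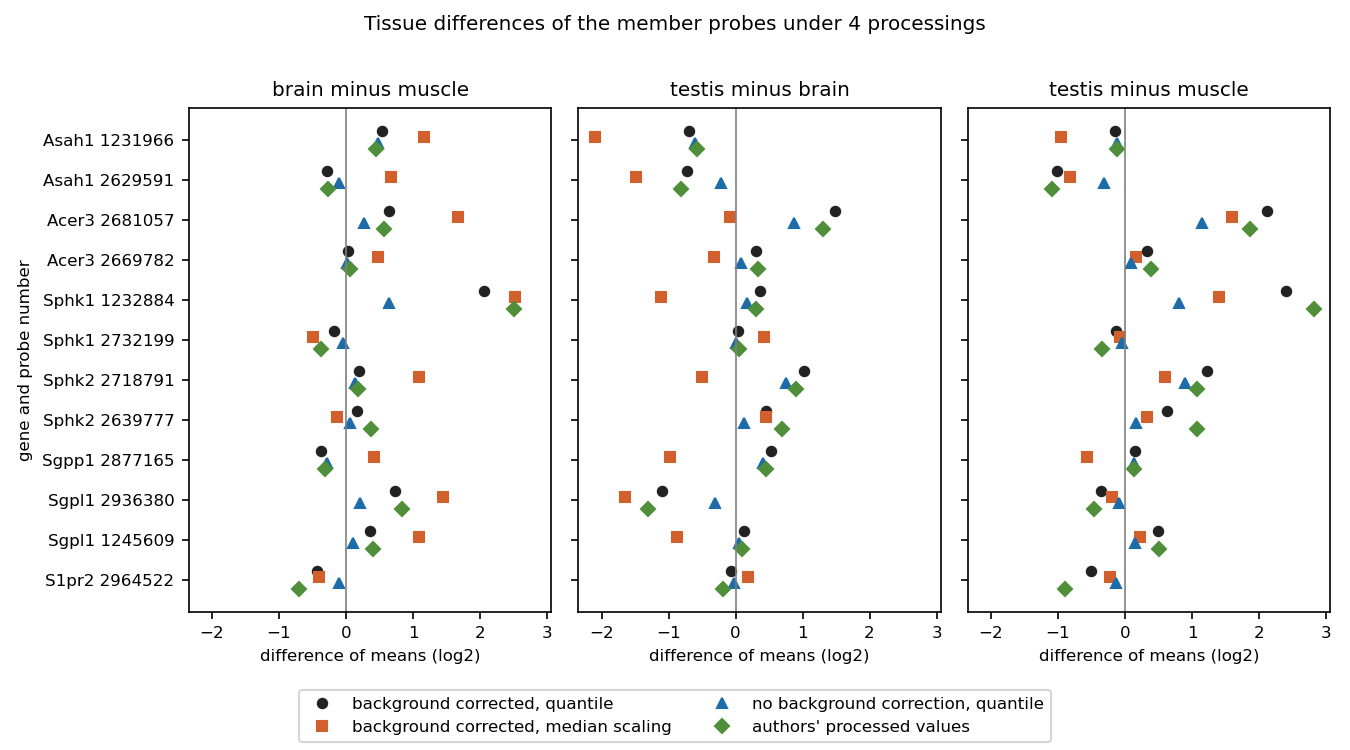
Difference of tissue means in log2 intensity (horizontal axes) for 12 member probes under 4 processings (symbols), for brain minus muscle, testis minus brain and testis minus muscle. Sphk1 ILMN_1232884 and Acer3 ILMN_2681057 lie right of 0 against muscle in every processing, whereas in testis minus brain the squares of median scaling lie left of the other symbols for most probes. Labels give the probe numbers without their prefix.

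Acer3 and Sphk2 had the most similar profiles among the members. Over the 22 arrays their log2 levels correlated at Pearson's r = 0.945, and at 0.853 to 0.965 over the 4 processings. After subtracting the mean of each tissue and genotype group the value was 0.398, so most of the likeness lay between tissues. The 22 arrays share 3 tissues and 15 mice, and no test was made. The next pair was Acer3 and Sphk1, at r = 0.788 and at -0.17 within groups. Among 8680 other genes, the levels most like Acer3 were those of Hspa2 and Dmrtc1a, both at r = 0.98. The levels most like Sphk2 were those of Usp8 (r = 0.983) and Msto1 (r = 0.978), and those most like Sphk1 were those of Pafah1b3 (r = 0.988) and Foxq1 (r = 0.987). For Asah1 they were Zbtb45 (r = 0.942) and Pias3 (r = 0.933), and for Sgpp1 they were Hoxb7 (r = 0.871) and Ldhd (r = 0.856). For Sgpl1 ILMN_1245609 they were Rbm5 (r = 0.761) and Cela1 (r = 0.743), and for S1pr2, near the floor of the scale, Mrpl58 (r = 0.857) and Yipf3 (r = 0.853). After subtracting group means the highest values were 0.784 for Acer3 with Rbm18, 0.838 for Sphk2 with Slc27a1, 0.89 for Sphk1 with Syngr2 and 0.849 for Sgpp1 with Zfp637.

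The start regions of Acer3 and Sphk2 are shown because these genes moved together over the tissues, and both lie on chromosome 7. Windows reach from 250 bases before to 50 bases after each annotated start and come from RefSeq, assembly GRCm38.p6; they are written 5′ to 3′ on the strand of the gene, which is the minus strand for both. Of the 9 members, 7 had such windows, 13 in all, and Asah1 and S1pr1 had none. Capitals mark 2 motifs, the GC box (GGGCGG, on either strand) and the cAMP response element (TGACGTCA), which do not overlap here.
Sphk2, chr7:45717953-45718252: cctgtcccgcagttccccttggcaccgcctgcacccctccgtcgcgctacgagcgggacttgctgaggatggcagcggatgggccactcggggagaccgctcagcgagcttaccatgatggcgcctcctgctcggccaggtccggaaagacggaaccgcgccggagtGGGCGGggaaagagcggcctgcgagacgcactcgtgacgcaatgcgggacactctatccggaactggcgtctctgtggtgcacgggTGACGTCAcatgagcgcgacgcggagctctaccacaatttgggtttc
Sphk2, chr7:45715158-45715457: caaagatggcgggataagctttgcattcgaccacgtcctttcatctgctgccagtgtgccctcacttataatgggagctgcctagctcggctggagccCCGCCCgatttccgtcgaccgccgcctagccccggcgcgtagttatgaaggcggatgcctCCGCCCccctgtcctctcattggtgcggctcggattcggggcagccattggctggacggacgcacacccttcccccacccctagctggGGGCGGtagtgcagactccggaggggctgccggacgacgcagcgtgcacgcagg
Acer3, chr7:98309493-98309792: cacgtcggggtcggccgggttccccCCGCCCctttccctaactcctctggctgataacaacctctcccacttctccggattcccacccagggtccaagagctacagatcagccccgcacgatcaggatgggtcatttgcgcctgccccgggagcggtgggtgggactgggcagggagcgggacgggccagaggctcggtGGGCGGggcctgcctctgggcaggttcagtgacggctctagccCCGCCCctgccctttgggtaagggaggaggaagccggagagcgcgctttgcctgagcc
Acer3, chr7:98321159-98321458: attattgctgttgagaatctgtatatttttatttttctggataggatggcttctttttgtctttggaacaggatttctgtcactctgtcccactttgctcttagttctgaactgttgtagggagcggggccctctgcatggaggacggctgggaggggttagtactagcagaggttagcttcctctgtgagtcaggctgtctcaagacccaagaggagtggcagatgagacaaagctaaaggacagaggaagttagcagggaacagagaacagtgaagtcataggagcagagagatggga

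The first Sphk2 window holds 1 GC box and 1 cAMP response element, and the other holds 3 GC boxes. The Acer3 window at 98309493 holds 3 GC boxes, and the window at 98321159 holds neither motif. GC boxes are common, and 35.7% of all 32851 windows of this length hold at least 1, whereas 1.79% hold the cAMP response element. Among the other members, S1pr2 was the only one with a cAMP response element in its window. A TATA box (TATAAA, on either strand) was found in 1 of the 5 Sphk1 windows and in 13.6% of all windows. These matches describe the letters of the windows and are no measure of binding.

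The rest of the pathway was read from a list of 31 genes around the members, of which 27 were on the array. In testis 0 of 18 tested genes passed the genotype test, in brain 0 of 23 and in muscle 0 of 16 (limma, Benjamini-Hochberg over all probes), and 2 in each tissue had an unadjusted p below 0.05, beside 5.53%, 3.85% and 9.18% of all probes. Their median difference was 0.06 in testis, 0.01 in brain and 0.01 in muscle, beside 0.018, 0.0023 and 0.01 over all probes. The genes of smallest p in muscle were Asah2, which encodes neutral ceramidase, with a difference of 0.41, and Cers2, a ceramide synthase, with -0.39. In brain they were Smpd2, a neutral sphingomyelinase, at -0.32 and Cers4, another ceramide synthase, at -0.27. In testis they were Ugcg, glucosylceramide synthase, at 0.40 and Cers2 at 0.31, the opposite sign to muscle on another probe of that gene. None of these passed adjustment.

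Some relatives of the members were detected in fewer tissues. Their bounds were computed only after background correction and quantile normalization of all arrays together, and were not tried under the other processings. For Sphk1 the bound of brain over muscle was 2.86 in that setting and 1.41 without background correction. The receptor gene S1pr5, known from oligodendrocytes, was detected on 7 of 7 brain arrays and on no other array, and was at least 1.75-fold higher in brain than in testis (limma adjusted p = 1.51e-13) and at least 1.61-fold higher than in muscle (limma adjusted p = 4.62e-07). It contrasts with S1pr1 and S1pr3, which were not detected in brain. Sgpp2, the second phosphatase gene, was detected on all testis and brain arrays and on 0 of 7 muscle arrays, as was Sphk1 on ILMN_1232884. It was at least 4.38-fold higher in brain than in muscle (limma adjusted p = 1.89e-09) and at least 2.14-fold higher in testis than in muscle (limma adjusted p = 3.47e-10). Sgpp1, in contrast to its relative, was detected on every muscle array. Among the other listed genes, Sgms2 was at least 19.5-fold higher in testis than in muscle (limma adjusted p = 2.26e-23). Cers1 was at least 2.15-fold higher in brain than in testis and at least 1.98-fold higher than in muscle. In brain against muscle, Cers4 was at least 2.38-fold and Plpp2 at least 1.16-fold higher.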

How the data were processed

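Total RNA of testis, brain and muscle was hybridised to Illumina bead arrays; the submitters' processing notes name GenomeStudio 2011.1. Groups and mouse identities came from the labels, which name a different mouse for every replicate of a group. The authors deposited a linear intensity and a detection p-value for each probe and array, not normalized per the file headers. A second deposited table held processed intensity values of the same arrays, with medians of 15 to 15.1 and values below 0. These ranked probes as the raw intensities did (rank correlation 1); their background treatment and scaling are not given in the sources used here, so they served as an alternative. No pair of arrays held identical values.

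The neqc function (limma 3.58.1, R 4.3.3) served for background correction and quantile normalization (offset 16, log2; negative controls inferred from detection p), each tissue alone for genotype and all 22 arrays together for tissues. Probes with detection p under 0.05 on at least 3 arrays were tested with lmFit and eBayes, two-sided, adjusted over all probes tested. Brain and muscle were compared within mice, and tissue pairs with testis in 1 fit of 6 groups. All adjusted p-values are from limma; exact permutation tests were two-sided. Intervals are at 95%. Scripts were tested on simulated data. Sums of markers are of linear intensities after correction and normalization of each tissue alone. Depth has no counterpart here beyond the number of arrays and the signal over background.

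Gene names came from the platform annotation (23978 probes with 1 symbol, 1719 with none). No protein sequence and no probe position was used here. Every probe of the members is accounted for; other genes came from a list, from which those of the 2 smallest p per tissue and those bounded between tissues were named, and likeness took the 2 highest correlations per member. The members, lists and tests were chosen with earlier results of these data known. Replicate numbers mark different mice between genotypes, and correlations of same-numbered deviations ran from -0.0144 to 0.135, so the main fit has no block. Alternatives were no background correction, offset 50, median scaling, the authors' processed values, normalization of all arrays together, other detection filters, 1 fit over all arrays, trend and robust options, a replicate block and leaving out libraries. A slide block was not run because no slide is named in the tables used here.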

Additional observations from a re-analysis of the deposited data

Results flagged for a closer look

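Single libraries stood apart from the other 3 of their group for 4 of the 40 combinations of member probe and group of 4 libraries that were examined with Dixon's test; chance alone gives about 1 in 20. In testis, wild type 2 read 6.57 for Acer3 ILMN_2681057, below the others at 7.14 to 7.23, and mutant 2 read 5.04 for Asah1 ILMN_2629591, above the others at 4.43 to 4.48. In brain, mutant 4 read 5.20 for Acer3 ILMN_2669782, below the others at 5.75 to 5.85. In muscle, mutant 4 read 8.83 for Asah1 ILMN_1231966, below the others at 9.14 to 9.19. Acer3 and Asah1 each appear with both of their tested probes, in different libraries for the different probes. Brain mutant 4 and muscle mutant 4 came from the same mouse. None of these 4 libraries is the one with little epididymal signal, with pituitary signal or with Ucp1 signal. Testis wild type 2 also had the lowest median intensity of the testis arrays, 93.65 against 100.7 to 106.8, and the lowest share of detected probes, 41.09% against 44.59% to 47.12%. Muscle mutant 4 had the lowest share of detected probes in muscle, 41.45% against 42.95% to 44.62%. The part of these array differences in the values was not tested.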

How the results depend on the processing

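No member probe passed the genotype test under any of the 18 alternatives per tissue; the lowest limma adjusted p was 0.164 in testis (1 fit over all arrays), 0.824 in brain and 0.34 in muscle. The number of all probes that passed moved more, from 0 to 40 in testis, 0 to 6 in brain and 4 to 190 in muscle. Of muscle calls 50% were higher in mutants in the main setting with 12 calls, and 18.9% with median scaling, where 37 passed. The replicate numbers do not pair the genotypes; with the replicate block 0 member probes passed in each tissue, and 35 probes of the array passed in muscle. Small genotype differences changed sign, in each case below the threshold. With the replicate block these were brain Acer3 ILMN_2669782 (0.15) and Sphk1 (0.02) and muscle Asah1 ILMN_1231966 (0.02) and S1pr2 (-0.02). With median scaling they were testis Acer3 ILMN_2681057 (0.14), brain Acer3 ILMN_2681057 (-0.01), Sphk2 ILMN_2718791 (-0.03) and ILMN_2639777 (0.01), and muscle S1pr2 (-0.01). Muscle S1pr2 was -0.08 with the authors' values and -0.02 without wild types 1 and 3. Without the 2 doubted brain libraries, Asah1 ILMN_1231966 was 0.01, Sgpp1 0.05 and Sgpl1 ILMN_1245609 0.01. Leaving out a single library turned the sign of 14 differences that were near 0. In brain they ran from -0.07 to 0.15 and -0.08 to 0.17 for the Acer3 probes ILMN_2669782 and ILMN_2681057, -0.10 to 0.03 for Asah1 ILMN_1231966, -0.14 to 0.06 and -0.17 to 0.06 for Sgpl1 ILMN_1245609 and ILMN_2936380, -0.10 to 0.02 for Sgpp1, -0.12 to 0.02 for Sphk1 and -0.17 to 0.10 for Sphk2 ILMN_2639777. In muscle they ran from -0.20 to 0.04 for Acer3 ILMN_2681057, -0.14 to 0.02 for Asah1 ILMN_1231966 and -0.04 to 0.10 for S1pr2, and in testis from -0.06 to 0.09 and -0.20 to 0.02 for Acer3 ILMN_2669782 and ILMN_2681057 and -0.04 to 0.15 for Sphk2 ILMN_2718791.

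Counts of member probes that differed between tissues ran from 5 to 12 of those tested, and counts over all probes ran from 11426 to 16018. With wild-type arrays alone, which leaves fewer samples, 5 passed between brain and muscle and 5 between testis and brain, in place of 9 each. Over all 18129 probes tested the counts fell as well, from 13361 to 11426 and from 14463 to 12444. When the pairing of brain and muscle arrays by mouse was ignored, 11 passed between them, beside 13486 of all probes. Median scaling turned testis minus brain to -0.08 and -0.32 for Acer3 ILMN_2681057 and ILMN_2669782, -1.11 for Sphk1, -0.50 for Sphk2, -0.98 for Sgpp1, -0.87 for Sgpl1 ILMN_1245609 and 0.19 for S1pr2, brain minus muscle to 0.67 for Asah1 ILMN_2629591, -0.13 for Sphk2 ILMN_2639777 and 0.42 for Sgpp1, and testis minus muscle to -0.56 for Sgpp1. The share of calls higher in testis than in brain was 44% and became 35.9%. Brain minus muscle for Acer3 ILMN_2669782 was -0.06 without the doubted brain libraries, and with wild-type arrays alone testis minus brain was -0.07 for Sgpl1 ILMN_1245609 and testis minus muscle 0.10 for Sphk1 ILMN_2732199. Differences of genotype effects changed sign with median scaling for Sgpl1 ILMN_2936380 (brain minus muscle, -0.01), Acer3 ILMN_2681057 (testis minus brain, 0.15), S1pr2 (testis minus brain, 0.02) and Sphk2 ILMN_2718791 (testis minus muscle, 0.06), without background correction for Acer3 ILMN_2681057 (testis minus muscle, -0.01), and without the doubted brain libraries for S1pr2 (brain minus muscle, 0.04). Some tissue differences that passed in the main setting kept their sign but did not pass in an alternative. This held for 6 results in brain minus muscle, 4 in testis minus brain and 8 in testis minus muscle. The cause of these changes was not tested. Limits are the small number of arrays, probes near background, the doubted brain labels, tissue composition and scaling.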
